A study of Homo sapiens with 2 samples.

Results

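TARBP2 binds double-stranded RNA and is a cofactor of Dicer, the nuclease that cuts microRNA precursors. The regions of TARBP2-bound RNA described here lie in the duplicated segments of human chromosome 7, bands 7q11 and 7q22. They were taken from a list of regions made by HITS-CLIP, in which UV light fixes a protein to the RNA it touches and that RNA is recovered with the protein and sequenced. The cells were MDA-LM2, a human breast cancer line, all transfected with a vector for myc-tagged TARBP2 and collected 48 hours later. The study held 1 group of 2 replicates and the list gives 1 set of regions for both, so no value has a replicate error and no test between samples can be made. No untreated sample or other precipitate enters the comparisons. The tagged protein came from a transfected vector, which limits the cells as a model of TARBP2 at its own level.

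Members were all regions of both strands whose midpoint lay on chromosome 7 (hg19) in either of 2 windows. The rule uses position alone, and the windows were chosen with earlier results of this list known. The larger window ran from 64.5 to 76.7 Mb and the smaller from 101.9 to 102.4 Mb. They held 581 of the 23412 regions of the whole list, 528 in the larger window and 53 in the smaller. The remaining 1048 regions of chromosome 7 served for comparison, since they share the library, the chromosome and the calling. At the edges, the first region inside the larger window was 413 nt long at 64501027 to 64501439 on the plus strand, and the last before it was 245 nt long at 64315923 to 64316167 on the minus strand. The last inside was 1102 nt long at 76693571 to 76694672 on the plus strand, and the next, of 522 nt, began at 76759794 on the minus strand. The first and last regions of the smaller window, at 101920573 to 101920821 and 102307550 to 102307798, were on the minus strand and had the most common length of the list, which is treated below. Those just outside it, at 101871210 to 101871458 and 102739824 to 102740072, had this length as well. No listed region lay in the last 92.3 kb of the smaller window.

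These bands are known for low-copy repeats, long stretches of nearly equal sequence that recombined and spread during primate evolution. Unequal exchange between the repeats deletes the stretch between them in Williams-Beuren syndrome. The repeats carry intact and broken copies of genes such as POM121, which codes for a protein of the nuclear pore, GTF2I, which codes for a general transcription factor, and NCF1, which codes for a subunit of the phagocyte NADPH oxidase. Others are POLR2J, for a subunit of RNA polymerase II, RASA4, for a Ras GTPase-activating protein, and the SPDYE genes, of the Speedy/RINGO family of cell cycle regulators. A sequenced fragment from 1 copy can align equally well to another. No source used here says how the authors placed such reads, so signal from 1 copy cannot be told apart from signal at several.

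The following promoter sequences show how alike the DNA of such copies can be, and not how alike sequenced fragments of their transcripts are. They were picked as near-identical sets from the 21 family symbols with a promoter entry, and the likeness of the others was not computed. They are the 250 bases before the annotated start of 3 SPDYE genes, 5′ to 3′ in the direction of the gene, from RefSeq on GRCh38.p14, where they lie at chr7:43997647-43997896 (SPDYE1), chr7:102550976-102551225 (SPDYE2) and chr7:102650069-102650318 (SPDYE2B), all on the plus strand. Capitals mark the 4 positions at which the sequences are not all alike. SPDYE2 and SPDYE2B have the same bases throughout, and SPDYE1, which lies on the short arm of the chromosome, has the same base as both at 246 positions.
SPDYE1: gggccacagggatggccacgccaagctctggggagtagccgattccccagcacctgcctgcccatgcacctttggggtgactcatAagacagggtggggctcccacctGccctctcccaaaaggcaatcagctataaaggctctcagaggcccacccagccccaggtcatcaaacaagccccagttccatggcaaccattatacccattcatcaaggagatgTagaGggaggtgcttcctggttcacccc
SPDYE2: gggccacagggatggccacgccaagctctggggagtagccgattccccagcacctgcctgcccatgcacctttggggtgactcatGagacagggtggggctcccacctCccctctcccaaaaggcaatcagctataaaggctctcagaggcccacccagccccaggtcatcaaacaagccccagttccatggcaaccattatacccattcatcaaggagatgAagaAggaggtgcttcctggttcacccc
SPDYE2B: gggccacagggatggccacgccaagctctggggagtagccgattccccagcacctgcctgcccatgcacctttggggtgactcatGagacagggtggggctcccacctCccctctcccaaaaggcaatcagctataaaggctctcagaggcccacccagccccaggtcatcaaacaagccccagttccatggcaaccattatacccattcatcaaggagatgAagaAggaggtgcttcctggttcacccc

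TRIM73 and TRIM74, genes for tripartite motif proteins that are carried on opposite strands by the repeats, likewise differ at 1 of 250 positions (capital). Their stretches lie at chr7:75395379-75395628 on the plus strand and chr7:72969467-72969716 on the minus strand of GRCh38.p14.
TRIM73: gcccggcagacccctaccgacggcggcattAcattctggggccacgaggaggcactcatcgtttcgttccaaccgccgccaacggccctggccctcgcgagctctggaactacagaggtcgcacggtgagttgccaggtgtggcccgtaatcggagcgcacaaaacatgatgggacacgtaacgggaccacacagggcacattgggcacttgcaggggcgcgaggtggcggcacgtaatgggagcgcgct
TRIM74: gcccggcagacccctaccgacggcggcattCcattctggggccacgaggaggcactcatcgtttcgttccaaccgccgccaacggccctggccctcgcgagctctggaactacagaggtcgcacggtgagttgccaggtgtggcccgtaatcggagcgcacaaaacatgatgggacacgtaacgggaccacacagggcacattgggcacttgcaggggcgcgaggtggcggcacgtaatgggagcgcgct

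The transcripts of these gene families are partly repeated elsewhere on the chromosome. In GENCODE 29, on GRCh38, chromosome 7 has 21 SPDYE entries (12 on the minus strand), 12 of PMS2 and its pseudogenes, 9 of GTF2I, 6 of POLR2J, 5 of the GTF2IRD genes, 5 STAG3L pseudogenes and 4 of RASA4. All 6 POLR2J and all 4 RASA4 entries are on the minus strand. For a median SPDYE gene, 90.0% of the 30-base stretches of its transcripts also occurred in transcripts of another gene of chromosome 7 that does not overlap it. The median was 84.9% for PMS2, 80.0% for RASA4, 70.1% for STAG3L, 64.5% for GTF2IRD, 56.4% for POM121, 56.1% for POLR2J and 28.5% for GTF2I, against 0.198% for the 910 protein-coding genes of the chromosome. The family medians include pseudogenes, which the comparison with protein-coding genes does not. Of the entries, 7 of 21 SPDYE, 1 of 12 PMS2, 1 of 9 GTF2I and 0 of 5 STAG3L are protein-coding. Genes of a family differed, as with 95.8% for TRIM74 and 39.3% for TRIM73, and GTF2I itself had 66.8%. These shares describe the reference and spliced transcripts only. Regions were not assigned to genes, introns or exons, because an annotation of hg19 was not used here, and no bases were read at the positions of the regions for the same reason.

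Regions lay far more densely in the windows than elsewhere on chromosome 7. The windows make up 8.01% of the stretch between the first and the last region of the chromosome and held 35.7% of its regions and 45.8% of all nucleotides that its regions cover. There were 45.7 regions per Mb in the windows (43.3 in the larger, 106 in the smaller) and 7.18 per Mb in the rest, a 6.37-fold difference. Regions covered 24.0 nt per kb in the windows (19.9 in the larger, 124 in the smaller) and 2.47 nt per kb in the rest, a 9.71-fold difference. Domains were formed from regions of 1 strand with gaps of at most 10 kb. With each domain counted once, the difference in number was 3.27-fold. When tiles of 500 kb without any region were left out of the rest, it was 4.30-fold. The fold differences describe 1 list and were not tested. Gene density and expression, which also differ along a chromosome, were not compared, and their part in the difference was not tested.

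Cut into tiles of 500 kb, chromosome 7 had 8 tiles with at least 40 regions. Of these, 7 lay inside the larger window, and the other was the tile from 102000001, which the smaller window covers in part. The highest number, 59 regions, fell in the tile from 66000001 to 66500000. The tiles from 74000001 and 76000001 followed with 51 regions each, the tile from 72500001 with 46 and that from 75000001 with 45. No tile wholly outside the windows held more than 33 regions, and the median of these 291 tiles was 1. By covered length the tile from 102000001 ranked first with 53043 nt, ahead of that from 72000001 with 33339 nt.

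The larger window was not dense throughout. Between 67 and 72 Mb it held 26 regions (5.2 per Mb), below the 7.18 per Mb of the rest of the chromosome, with a median length of 248.5 nt and none over 1000 nt. The 126 regions from 64.5 to 67 Mb (50.4 per Mb) and the 376 regions from 72 to 76.7 Mb (80 per Mb) made up the remainder. These borders were chosen after the tiles had been seen. The high density of the larger window thus came from stretches on both sides of a sparse middle.

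**Figure D1:**
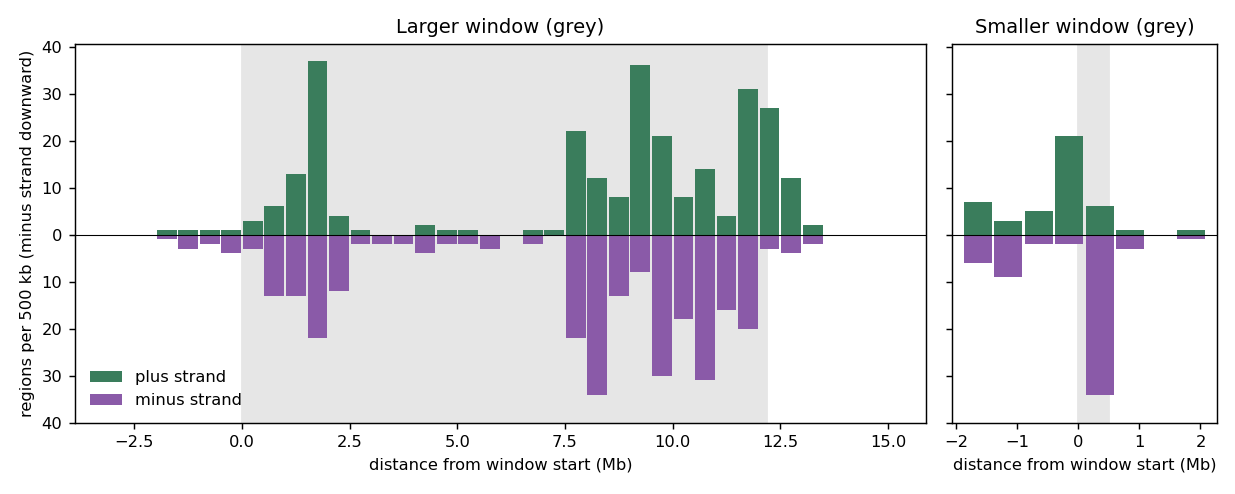
Regions per 500 kb tile on the plus strand (upward) and minus strand (downward) against the distance from the start of each window in Mb, with the window in grey and flanking tiles beside it. The larger window shows 2 dense stretches around a sparse middle, and the strand that holds more regions changes from tile to tile.

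Regions in the windows were also longer. Their median was 316 nt, against 251 nt in the rest of the chromosome, and the upper quartiles were 523 and 369.8 nt. The shortest member had 105 nt and the longest 9742 nt. The smaller window had the longest regions, with a median of 504 nt and an upper quartile of 895 nt. With 1 median per domain, windows and rest differed by 0 nt. In the windows, 48 of 581 regions exceeded 1000 nt (8.26%, 95% exact Clopper-Pearson interval 6.15 to 10.8%), against a background of 1.72% in the rest (18 of 1048, interval 1.02 to 2.70%). In the smaller window 12 of 53 did (22.6%, interval 12.3 to 36.2%). These intervals cover counting error only, and neighbouring regions are not independent. The windows held 72.7% of the 66 regions over 1000 nt on chromosome 7. Such regions made up 34.01% of the covered nucleotides in the windows and 7.58% in the rest.

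Long regions went with crowding inside and outside the windows. Regions alone in their domain had the same median length, the most common length of the list, in the windows (n = 126) and in the rest (n = 555), and none of either exceeded 1000 nt. In domains of 2 to 9 regions the medians were 313 and 289 nt. In domains of at least 10 regions they were 465.5 nt (n = 250) and 443 nt (n = 80), with 17.2% (12.7 to 22.5%) and 12.5% (6.16 to 21.8%) over 1000 nt. Within each class the medians of the 2 windows pooled and of the rest were thus close and the intervals overlapped. The smaller window alone stood higher in the class of at least 10 regions (n = 43), with a median of 553 nt. Its upper quartile there was 1091.5 nt, against 702.25 nt in the rest, and 27.9% (15.3 to 43.7%) exceeded 1000 nt. The classes were filled unequally: 43.0% of the regions in the windows and 7.63% of those in the rest belonged to domains of at least 10 regions.

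**Figure D2:**
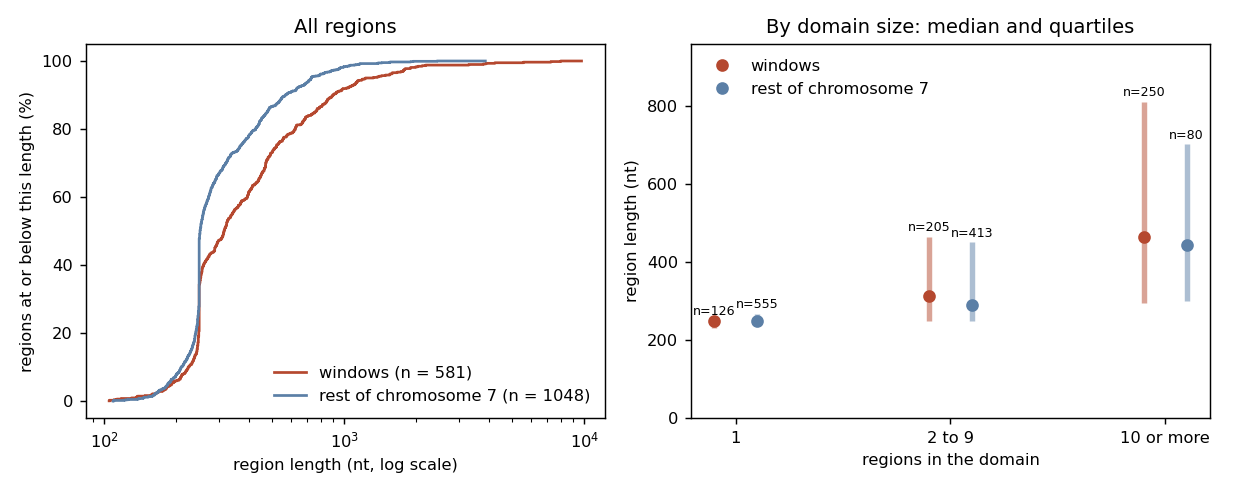
Left, cumulative share of regions (%) by length in nt (log axis) in the windows and in the rest of chromosome 7. Right, median length (points) and quartiles (bars) in nt by the number of regions in the domain; the medians are equal for regions alone, 313 and 289 nt in domains of 2 to 9, and 465.5 and 443 nt in larger domains.

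The 10 longest members lay in 5 domains, and 9 of them were on the minus strand. The first 4 were in the smaller window: 9742 nt at 102182792 to 102192533, 7972 nt at 102282505 to 102290476, 7265 nt at 102270689 to 102277953 and 5580 nt at 102171575 to 102177154. The next 4 were in the larger window and came as 2 close pairs. The first was of 4241 and 3898 nt (72461014 to 72465254 and 72465356 to 72469253). The second was of 3798 and 3306 nt (74291886 to 74295683 and 74296204 to 74299509), with a region of 316 nt between them. A region of 2184 nt at 102197185 to 102199368 and the only 1 on the plus strand, of 2114 nt at 101991552 to 101993665, completed the 10. Chromosome 7 had 9 regions over 3000 nt, 8 of them in the windows. The ninth, of 3873 nt at 44029578 to 44033450 on the minus strand, lay in a domain whose layout resembled those of the smaller window, as described below.

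The most common exact length of the list was less frequent in the windows. It was found in 80 regions (13.8%, 11.1 to 16.8%), against 210 in the rest (20.04%, 17.7 to 22.6%). Both in the windows and in the rest it was more frequent on the minus strand, with 19.9% against 6.67% in the windows and 28.0% against 6.05% in the rest. Among regions alone in their domain the shares were 27.0% (19.5 to 35.6%) in the windows and 25.9% (22.3 to 29.8%) in the rest, so this length too varied with crowding.

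The strands were more even in the windows than in the rest. The minus strand held 311 of 581 regions (53.5%, 49.4 to 57.6%) in the windows and 668 of 1048 (63.7%, 60.7 to 66.7%) in the rest. The larger window had 52.3% (47.9 to 56.6%) and the smaller 66.0% (51.7 to 78.5%), which is above the rest and has an interval that includes it. By covered nucleotides the minus shares were 61.0% in the windows and 66.7% in the rest, and 82.5% in the smaller window. Without regions of the most common length the shares of regions were 49.7% and 57.4%. With each domain counted once they were closer, at 55.6% and 61.8%. The intervals treat neighbouring regions as independent, which they are not.

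Several dense tiles leaned to 1 strand or the other, and others were even. The tiles from 65500001 and 72000001 held 13 and 22 regions on each strand, and that from 74000001 had 30 of 51 on the minus strand. In the larger window, 8 of 44 regions were on the minus strand in the tile from 73500001 and 34 of 46 in the tile from 72500001. In the tile from 66000001, 22 of 59 were on the minus strand, and in that from 75500001, 16 of 20. In the tile from 76500001, which holds the end of the window, 27 of 30 were on the plus strand. In the smaller window the tile from 101500001, which begins before the window, had 21 of 23 regions on the plus strand, and the next tile had 34 of 40 on the minus strand. Of neighbouring regions within 10 kb of each other, 375 of 414 pairs in the windows (90.6%, 87.3 to 93.2%) and 355 of 400 in the rest (88.7%, 85.2 to 91.7%) were on the same strand. The strands of the windows were therefore even in sum and one-sided over short distances, to a degree close to that of the rest.

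Few members overlapped a region of the opposite strand. There were 4 such pairs, or 8 members (1.38%, 0.596 to 2.70%), all in the larger window, against 10 regions (0.954%, 0.458 to 1.75%) in the rest. The overlap was 23 nt at 72371792, 63 nt at 75085498, 213 nt at 76120517 and 10 nt at 76270206. The smaller window had 0 of 53, where 3 counts would be 5.66% and the exact interval reaches 6.72%.

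Members stood close together on their strand. Of the members, 255 had another region of their strand within 1000 nt (43.9%, 39.8 to 48.0%), as had 216 regions of the rest (20.6%, 18.2 to 23.2%). In the smaller window the share was 71.7% (57.7 to 83.2%). Within 10 kb the shares were 78.3% in the windows and 47.0% in the rest. Of the 196 domains in the windows 16 held at least 10 regions (8.16%), against a background of 0.872% in the rest (6 of 688). Of the 16, 9 were on the minus and 7 on the plus strand, while all 6 in the rest were on the minus strand. The number in the rest depended on the joining distance: it was 3 with 5 kb and 12 with 20 kb, against 16 and 21 in the windows.

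The dense domains varied widely in how much of their span was covered. In the larger window the domain of most regions, 26, ran from 75062462 to 75139778 on the minus strand and was covered over 18.9% of its 77.3 kb. A minus-strand domain of 24 regions from 65978345 to 66030220 was covered over 32.1% and held 6 regions over 1000 nt. It was followed on the plus strand by a domain of 19 regions from 66142634 to 66192132 that was covered over 14.5%, with no region longer than 924 nt. The lowest cover, 9.91%, was found from 72485628 to 72526227 on the plus strand, with 12 regions.

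The highest cover in the larger window was found in a pair of minus-strand domains. They ran from 72442767 to 72474567 (16 regions, 62.3% covered) and from 74274663 to 74304966 (18 regions, 57.1% covered). In the smaller window, a pair of minus-strand domains from 102170800 to 102208747 (16 regions) and from 102270689 to 102307798 (15 regions) were covered over 65.7% and 67.3%. The third domain there, on the plus strand from 101980019 to 101998321, held 12 regions and was covered over 47.7%. The other dense domains of the larger window lay on the minus strand from 66738829, 72814900 and 76066161 (10, 11 and 14 regions) and on the plus strand from 74995757, 76148694, 76234494 and 76638629 (14, 14, 10 and 19 regions). Among these 7 the longest region was 1983 nt, at 74997399 to 74999381. Outside the windows, the dense domain with the most regions, 23, lay on the minus strand from 44017290 to 44057715.

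Repeated layouts were first sought by matching regions. A repeat was defined as at least 4 pairs of regions that shared 1 shift on the same strand, or 1 mirror point on opposite strands, with both ends within 25 nt. None was found in the windows or in the rest of chromosome 7. With a tolerance of 50 nt there were 2 such runs that touched the windows, 1 on the same strand and 1 on opposite strands. There were also 2 among mirrored layouts of the same strand, where a copied segment would not match. With 3 pairs and 25 nt there were 6 runs that touched the windows, 2 on the same strand and 4 on opposite strands. Mirrored layouts, a single kind set against these 2 kinds, gave 4. Short runs were therefore not set apart from the mirrored ones.

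Layouts were then compared by which positions were covered, a search chosen after the first had been seen. Each domain of at least 8 regions was written as covered bins of 20 nt in the direction of its strand, and each pair was shifted to its highest correlation across bins over at least 25 kb. Domains of shorter span could not enter. Of 136 pairs on chromosome 7, 6 reached r of at least 0.5 (4.41%), and each of the 6 included at least 1 domain of the windows, as 130 of all 136 pairs did. With 1 layout of each pair reversed, 3 of 136 reached 0.5, with a highest value of 0.506. The comparison with reversed layouts depended on the shortest stretch allowed. Over at least 20 kb 10 pairs and 8 reversed pairs reached 0.5, over 15 kb 23 and 17, and over 10 kb 64 and 71. In each of these settings the highest reversed value (0.720, 0.766 and 0.889) was above the highest direct value (0.616, 0.707 and 0.795). The values of the 6 ranged from 0.553 to 0.616, and the median of all pairs was 0.260. Bins are not independent, so r is a description with no p.

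**Figure D3:**
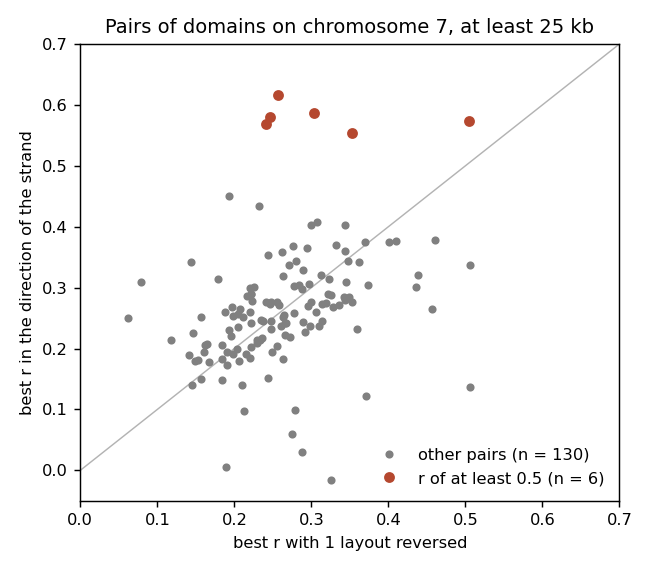
Highest correlation of covered bins of 20 nt over at least 25 kb for each of 136 pairs of domains, in the direction of the strand (vertical axis) and with 1 layout reversed (horizontal axis); the line marks equal values. The 6 pairs at or above 0.5, picked by their direct value, lie above the line, and the other 130 spread around it. With 1 layout reversed 3 pairs reach 0.5, including the pair from 72442767 and 74274663.

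Among these pairs were 3 formed by 3 domains: the pair of minus-strand domains of the smaller window and the domain outside the windows from 44017290. The domains of the smaller window matched each other with r = 0.616 (0.257 reversed) at a shift of 40 nt from upstream end to upstream end. Over shorter stretches the reversed value of this pair was above the direct one, at 0.720 over at least 20 kb and 0.766 over at least 15 kb. Of the nucleotides covered in the first, 87.9% were covered in the second, against 67.3% of all positions compared there. The domain outside matched them with r = 0.586 (0.304 reversed) and 0.569 (0.241 reversed). Over at least 20 kb the reversed values were 0.540 and 0.487. Of its covered nucleotides in the shared stretch, 96.5% and 94.3% were covered in the smaller window's domains, whose own cover over that stretch was 67.3% and 65.8%. All 22 of its regions in the shared stretch overlapped a region of each of those domains after the shift. In the other direction, 9 of 15 and 12 of 15 regions of those domains overlapped a region of the domain outside. Of the covered nucleotides of those domains, 66.5% and 66.9% were covered in the domain outside, against 46.4% and 46.7% of all positions compared. No count of overlaps for other shifts is given here.

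Placed on 1 axis in the direction of the strand, the 3 domains shared 37.1 kb, of which 42.4% was covered in all 3 and 24.3% in none. The longest stretch covered in all 3 was 3873 nt, the full length of the longest region of the domain outside. It fell within the regions of 9742 and 7972 nt of the smaller window. The whole of the 1548-nt region of the domain outside was likewise covered in both. Stretches covered in none were 3147 nt from 8.04 to 11.2 kb and 2846 nt from 29.2 to 32.0 kb of the axis. Where the smaller window had 1 region of 9742 nt, the domain outside had a string of shorter ones at the chosen shift. These left parts of that stretch uncovered, at its ends and between them.

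The pair of minus-strand domains of the larger window, 72442767 and 74274663, matched with r = 0.574. With 1 of them reversed, r was 0.505 over at least 25 kb and 0.354 over at least 30 kb. Their longest regions took the same places: 3898 and 3306 nt beginning 5314 and 5337 nt from the upstream end of the first, then 4241 and 3798 nt beginning at 9313 and 9163 nt. Of 30.2 kb compared, 50.02% was covered in both and 28.8% in neither. Of the covered nucleotides of the first, 77.8% were covered in the second, against 56.9% of all positions. After the shift 14 of 15 and 17 of 18 regions overlapped a region of the other domain. The domains covered 64.3% and 56.9% of the stretch, and no count for other shifts or a reversed layout is given here. Only 1 region of the first matched at both ends within 25 nt.

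**Figure D4:**
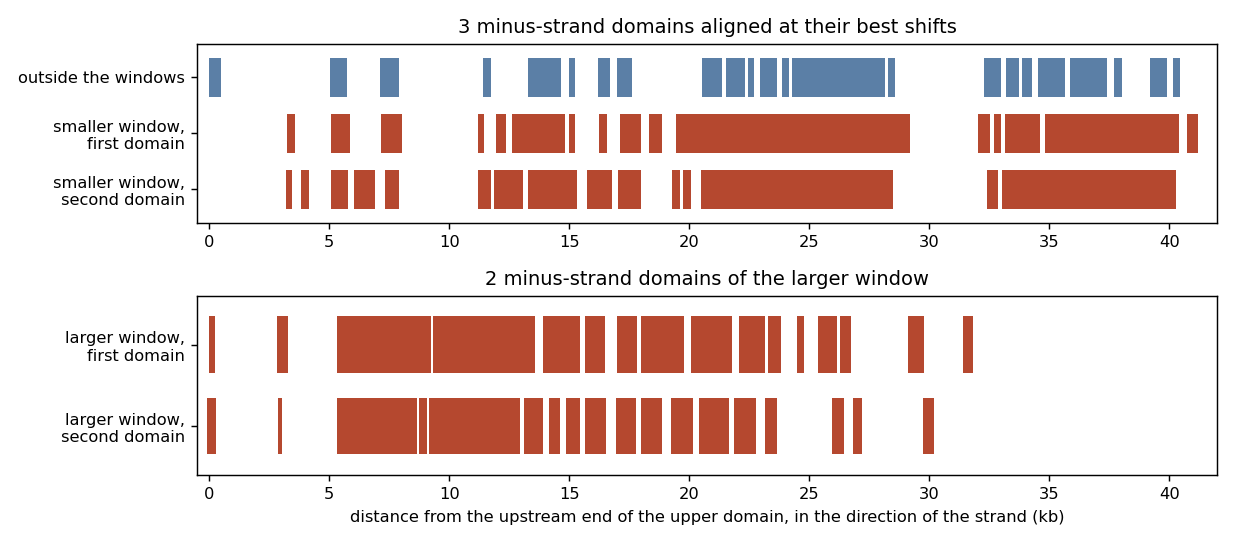
Regions (boxes) of 3 minus-strand domains with similar layouts (top) and of the pair in the larger window (bottom), aligned at their best shift; the horizontal axis is the distance in kb from the upstream end of the upper domain of each panel. At these shifts, chosen for the highest r, some long regions and gaps fall together, such as the gap from 29.2 to 32.0 kb at the top. Others do not: the regions of 7265 and 5580 nt at the top begin at 33025 and 34833 nt. Of the axis at the top, 14.4% is covered in only 1 domain and 18.9% in 2.

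The remaining pairs lay in the larger window. The plus-strand domains from 76148694 and 76638629 matched with r = 0.580 (0.246 reversed) over 27.0 kb. Their regions of 1760 and 1586 nt began 15284 and 15326 nt from the upstream end of the first, and those of 1891 and 1773 nt at 17187 and 17409 nt. Of the nucleotides covered in the first 76.1% were covered in the second, against 35.6% of positions. After the shift 9 of 13 regions of the first and 9 of 12 of the second overlapped a region of the other. The plus-strand domain from 76148694 also matched the minus-strand domain from 75062462 with r = 0.553 (0.353 reversed) over 26.3 kb, with 72.1% of the covered nucleotides of the latter covered in the former against 32.4% of positions. In that pair the regions of 1889 and 1891 nt began at 11549 and 11407 nt. There, 9 of 10 regions of the minus-strand domain and 8 of 12 of the plus-strand domain overlapped a region of the other. The shifts were chosen to give the highest r, which raises these shares. The plus-strand domain of the smaller window, from 101980019, spans 18.3 kb and could not enter comparisons over at least 25 kb. Over at least 15 kb it matched the domains from 76148694 and 76638629 with r = 0.707 (0.452 reversed) and 0.646 (0.296 reversed). These were the 2 highest direct values of that setting, in which reversed layouts reached 0.766.

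The 7 domains of these pairs inside the windows held 124 of the 581 members and 28 of the 48 members over 1000 nt. Without the domains of similar layout, the share over 1000 nt was 4.38% in the windows and 1.37% in the rest, and the density of regions was 5.12-fold that of the rest. Both values were thus smaller without these domains and remained above the rest. A lower density follows from removing regions while the span is kept. Domains of at least 10 regions held 43 of the 48 long members, so removing crowded domains lowers that share whatever their layout.

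Names of the deposited regions carry numbers that rise along each strand. In the windows, 581 of the 2062 numbers between the first and the last of each stretch and strand were listed (28.2%, 26.2 to 30.2%), against 17.7% (16.8 to 18.7%) in the rest. The share was 39.8% (31.5 to 48.7%) in the smaller window and close on both strands of the windows (28.1% plus, 28.2% minus). The numbers themselves were denser in the windows, at 162 per Mb against 40.5 per Mb. No source used here says what the unlisted numbers stood for.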

How the data were processed

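The submitters' processing notes name Bowtie as a tool and hg19 as the build. No source used here gives the version, the region caller, its filters, the placement of reads with several alignments or how the replicates were joined. The authors deposited 1 list with a score of 1 for each region, which carries no height, so the depth behind a region and the depth per sample are unknown. Whether the 2 replicates were separate cultures is not stated in the labels.

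Deposited starts were changed from 0-based to 1-based. Regions were assigned to windows by midpoint (64500000 to 76700000 and 101900000 to 102400000), and domains joined regions of 1 strand with gaps of at most 10 kb. The most common region length was 249 nt. Shares have 95% exact Clopper-Pearson intervals, which cover counting error only. No p-value was computed. The difference of median lengths was made the measure of length after the values were known. Named regions were the 10 longest members and named domains those of at least 10 regions. The planned rule for named layouts found none, so the layouts named here were chosen after their values were seen. The windows and the measures were chosen with earlier results of these data known. GENCODE 29 and RefSeq, both on GRCh38, served for gene numbers, strands, shared 30-base stretches and promoter sequences, with no coordinates converted. Of 74 family symbols, 21 had a promoter entry. The functions were tested on simulated regions. Work was done in Python 3.11.15 with pandas 2.3.3, scipy 1.17.1, numpy 2.4.6 and, for plots, matplotlib 3.10.9.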

Additional observations from a re-analysis of the deposited data

How the results depend on the processing

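Of 45 alternative settings, 38 were planned and 7 were added after the data had been seen; 21 left the value within its interval or a count within 1.5 times. The density fold (6.37) was 3.27 with 1 count per domain, 4.30 without empty tiles, 14.8 in the smaller window and 5.12 without the domains of similar layout. The fold in covered length (9.71) was 10.6 without the most common length, 6.94 with regions of at most 1000 nt, 8.05 in the larger and 50.2 in the smaller window. The median length exceeded that of the rest by 65 nt, by 88 nt without the most common length, by 253 nt in the smaller window and by 0 nt with 1 value per domain. The minus share, lower in the windows than in the rest, was 61.0% by covered nt and, in the smaller window, 66.0% and above the rest. The spacing share was 55.2% within 2000 nt. Members overlapping the other strand, more frequent than in the rest (1.38% against 0.954%), were less frequent in the smaller window (0) and with an overlap of at least 50% of the shorter region (0.344% against 0.763%). The share of listed numbers was 39.8% in the smaller window. The share over 1000 nt was 4.38% without the domains of similar layout.

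Runs of matched regions that touch the windows rose from 0 to 6 with 3 pairs (4 mirrored), 2 with 50 nt (2 mirrored) and 638 with 1 end (330 mirrored). In each setting the mirrored runs come from 1 mode and the others from 2. Pairs of similar layout that touch the windows (6) were 52 over at least 10 kb, 19 over 15 kb and 3 over 35 kb. On the whole chromosome 64, 23 and 3 direct pairs stood against 71, 17 and 0 reversed ones, and 10 against 8 over 20 kb. The highest reversed value was above the highest direct one over 10, 15 and 20 kb and below it over 25, 30 and 35 kb. No paired analysis was possible because 1 list serves both replicates of a single group, and for that reason no replicate could be left out.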
